A study of Mus musculus with 2 samples.

Results

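The broad peaks were the 325 rows of a list of 2888 ChIP-seq peaks whose listed length was above 1000 bp (11.3%, exact 95% interval 10.1% to 12.5%). They were chosen from a measured value, the length that the peak caller gave, and lengths, tags, folds and scores all come from the same comparison of ChIP with input. All differences from the 2563 peaks of 1000 bp or less (shorter peaks, below) are therefore given as descriptions, with no test. The list came from chromatin immunoprecipitation followed by sequencing of HA-tagged Dido3 (HADido3), an isoform encoded by the Dido1 gene, in mouse embryonic stem cells of strain C57BL/6 with the genotype Dido3deltaCT+HADido3, cultured with leukemia inhibitory factor to keep them self-renewing. The design held 1 library precipitated with a polyclonal anti-HA antibody and 1 input library of the same cells with no antibody, so both carried the Dido3deltaCT allele and the HADido3 added back. The labels do not say whether the line was 1 clone or which promoter drove HADido3. No library of cells without the tag was part of the design, and HADido3 binding and non-specific precipitation cannot be told apart. The peak list holds no expression value, so the stem cell identity of the cells was not checked.

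In ChIP-seq, cross-linked chromatin is sheared, fragments bound by the antibody are sequenced, and each aligned read end (a tag) marks a fragment. A factor that sits at a single point gives a pile of tags whose width is limited by the fragment length. A much wider peak can hold fragments from several positions, as is known for histone marks and for proteins that spread along or travel over chromatin. Whether a given broad peak held 1 position or several was not tested. Dido3 is the largest product of its gene and carries a PHD finger, a domain that reads methylated histone H3 tails, together with domains related to transcription elongation factors. Chromatin was sheared to fragments of about 200 to 500 bp per the labels' protocols, so each broad peak was at least 2 times as long as the upper end of the stated fragment range. Positions below are mm9 coordinates, counted from 1 as listed, and no peak was joined to a gene or to sequence.

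Broad peaks were few but held a large part of the signal. They covered 561.9 kb of the 1658 kb in all peaks (33.9%) and contained 38565 of the 84288 ChIP tags (45.8%). Their lengths ran from 1002 to 9424 bp with a median of 1493 bp (interval 1445 to 1553, quartiles 1213 and 1908), and 259 of the 325 were 2000 bp or shorter. Only 19 exceeded 3000 bp. A broad peak held 37 to 914 tags with a median of 93 (interval 83 to 100), against 9 to 121 tags with a median of 13 (interval 13 to 14) in the shorter peaks. Intervals of medians are exact binomial intervals, all intervals are at 95%, and they cover counting error only: tags without molecular identifiers are not independent molecules, and neighbouring peaks share chromatin. With 1 library on each side there is no replicate error for any value.

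The broad peaks were also denser in tags, so their size was not only length. Tags per kb of peak ranged from 36.2 to 137.0 with a median of 60.3 (interval 57.3 to 63.1). In the shorter peaks the range was 27.9 to 200, with a median of 37.8 (interval 37.5 to 38.2). The densest peak of the list was therefore a shorter one. Of the 325 broad peaks, 323 lay above the median density of the shorter peaks, while 79 of the 2563 shorter peaks lay above the median of the broad ones. Density went up with length from class to class. The median was 36.6 tags per kb in peaks of 500 bp or less and 43.6 in peaks of 501 to 1000 bp. Among broad peaks it was 54.9 at 1001 to 1500 bp (n = 164), 60.7 at 1501 to 2000 bp (n = 95), 71.3 at 2001 to 3000 bp (n = 47) and 85.4 above 3000 bp (n = 19). Within the broad peaks Spearman's rho between length and tags per kb was 0.43 over 325 peaks, which share 1 library and its depth. The lower edge of the densities is set in part by the caller, since no listed peak had fewer than 9 tags.

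**Figure D1:**
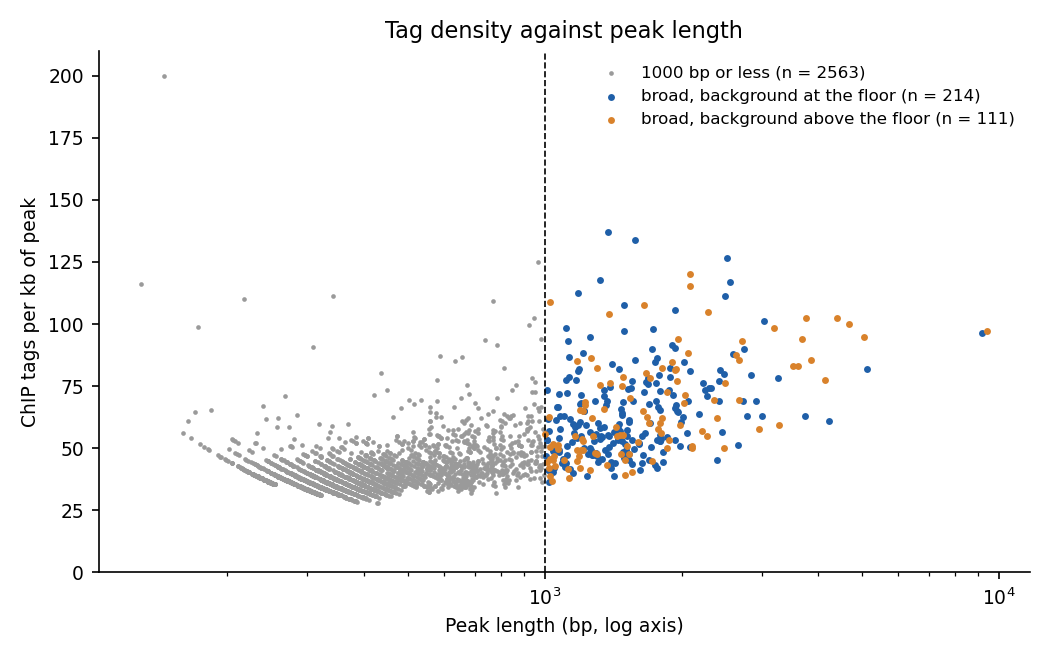
ChIP tags per kb of peak (vertical axis) against peak length in bp (horizontal log axis) for every listed peak; grey points are peaks of 1000 bp or less, blue and orange points are broad peaks with their background at and above the genome-wide floor, and the dashed line marks 1000 bp. Medians are 37.8 tags per kb left of the line and 60.3 right of it, and the 2 longest peaks, 1 of each colour, stand alone at the right.

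The 10 densest broad peaks were 1027 to 2558 bp long. The top density was that of 1380 bp on chromosome 7 (3659132 to 3660511), where 189 tags lay, or 137.0 tags per kb (exact Poisson interval 118.1 to 157.9), and a fold of 80.2. Next came 1575 bp on chromosome 9 (40614327 to 40615901) with 211 tags, 134.0 per kb (interval 116.5 to 153.3) and a fold of 64.6. These intervals overlap widely, so the order of the densest peaks is not resolved. The third, on chromosome 7 (3220164 to 3222674), had 318 tags over 2511 bp, or 126.6 per kb (interval 113.1 to 141.4). None of the 10 densest peaks was among the 10 longest, whose densities ran from 61.0 to 102.5 tags per kb. They carried 112 to 318 tags and folds of 8.33 to 80.2, and 3 of them were also among the 10 highest scores. The tenth, 1027 bp on chromosome 4 (146708531 to 146709557), had 109.1 tags per kb (interval 89.8 to 131.2) but the lowest fold of the 10, 8.33.

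At the other end, the 10 sparsest broad peaks had 36.2 to 40.6 tags per kb and 37 to 63 tags, close to the median density of the shorter peaks. They were 1021 to 1553 bp long, with folds of 6.43 to 15.7 and scores of 100.1 to 285.5. The sparsest of all lay on chromosome 18 (46771018 to 46772038), where 37 tags over 1021 bp gave 36.2 per kb (interval 25.5 to 49.95). Its summit stood at 10.8% of its length, and another listed peak began or ended 5 bp from it. Another sparse peak, on chromosome 7 (4747475 to 4748891), had 55 tags over 1417 bp, 38.8 per kb (interval 29.2 to 50.5), with its summit at 8.89% of its length and a neighbour at 50 bp.

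The listed values on which the class was not defined but which come from the same call were high. The fold enrichment, the ratio of the summit signal to the local or genome-wide background, had a median of 24.5 in broad peaks (interval 23.5 to 26.6, range 3.70 to 84.1) and 13.7 in shorter peaks. A fold of at least 20 was listed for 218 broad peaks (67.1%, interval 61.7% to 72.2%), against 14.5% of the whole list. A score of at least 100 was listed for 305 of the broad peaks (93.8%), against 35.9% of the list. The score is the negative log10 of the p-value times 10. Such a score was also listed for 560 of the 645 peaks of 501 to 1000 bp, so it was not particular to the broad peaks. Within the shorter peaks the score rose with length (Spearman's rho 0.79). The highest scoring 50 peaks of the list were all broad, as were 97 of the highest 100 and 186 of the highest 200. The highest score of a shorter peak, 1130.54, belonged to 967 bp on chromosome 10 (80644860 to 80645826) with 121 tags, 125.1 tags per kb and a fold of 88.1, above that of any broad peak.

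Of the broad peaks, 24 had a listed false discovery rate over 5% (7.38%, interval 4.79% to 10.8%), against 35.4% of the list. The rate was at most 5% in 301 of the 325 broad peaks and in 630 of the 645 peaks of 501 to 1000 bp. Low rates were therefore not particular to the broad peaks. In peaks of 500 bp or less the median rate was 5.34%. The 24 broad peaks with a rate over 5% fell into separate ends of the score range. In 17 of them the score was 1743.72 or higher, at ranks 3 to 19 of the whole list, with folds of 24.2 to 84.1. At those ranks the rate is a ratio over few listed peaks. The other 7 had scores of 52.6 to 62.2, at ranks 1888 to 2579, folds of 3.70 to 5.56, and a background above the floor described next. No broad peak between these ends had a rate above 5%.

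Most folds in the list were whole multiples, within 0.01, of a step of 1.96, as arises when a whole summit height is divided by 1 genome-wide background. Such a background was found for 214 broad peaks (65.8%, interval 60.4% to 71.0%), said to be at the floor. The remaining 111 (34.2%, interval 29.0% to 39.6%) had a larger, local background. For shorter peaks that share was 26.5% (interval 24.8% to 28.2%), but it was 35.2% (interval 31.5% to 39.0%) in the 645 peaks of 501 to 1000 bp and 23.5% in the 1918 of 500 bp or less. Among broad peaks it was 31.7% at 1001 to 1500 bp, 29.5% at 1501 to 2000 bp, 40.4% at 2001 to 3000 bp and 63.2% (12 of 19, interval 38.4% to 83.7%) above 3000 bp. Of those 19, 7 lay in the windows on chromosomes 4 and 8 described below, and without these it was 5 of 12 (41.7%, interval 15.2% to 72.3%). Tag densities of the broad peaks at and above the floor were close, with medians of 60.5 and 60.1 tags per kb, whereas the median folds were 29.4 and 15.2. The fold is lower by construction where the background is larger.

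In peaks at the floor, the fold divided by the step gives the summit height in steps. Reading 1 step as 1 tag is an assumption, since the calling options are not stated, and in none of the 2099 such peaks did the steps exceed the tags in the peak. The median summit height was 15 steps (interval 13 to 15, range 7 to 43) in broad peaks and 7 steps in shorter ones. Set against the tags of its peak under that assumption, the summit height was 16.0% (interval 14.9% to 16.7%) in broad peaks and 54.5% in shorter peaks. It fell with length from class to class on both sides of 1000 bp. The median was 60% at 500 bp or less and 31.6% (interval 30.4% to 32.0%) at 501 to 1000 bp. Among broad peaks it went from 18.3% at 1001 to 1500 bp to 14.2%, 10.6% and 7.66% in the successive length classes. The share is taken over all tags of the peak, so a fall with length arises in part by construction. The peak of 9148 bp on chromosome 13 (98256245 to 98265392) had the tallest broad summit, 43 steps, and the smallest share at it, 4.88% of 882 tags. The peak of 5123 bp on chromosome 8 (44375136 to 44380258) had 23 steps, or 5.49% of 419 tags. These shares exist only for the 214 broad peaks at the floor.

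**Figure D2:**
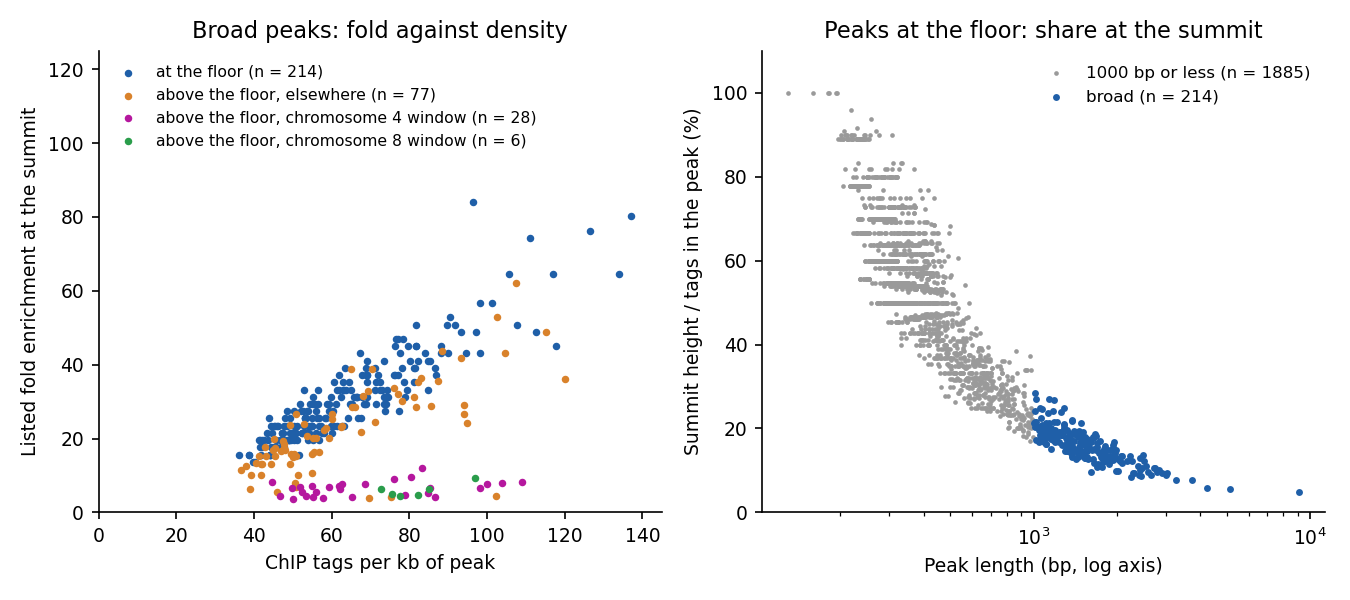
Left, listed fold enrichment against ChIP tags per kb for the 325 broad peaks, coloured by background (blue, at the floor; orange, above it; purple and green, above it and within the windows on chromosomes 4 and 8). Right, summit height as a percent of the tags in the peak against peak length in bp (log axis) for peaks at the floor, broad in blue and shorter in grey. The purple and green points lie along the bottom of the left panel at folds of 3.70 to 12.0. The right panel falls, in part by construction, from a median of 54.5% in shorter peaks to 16.0% in broad ones. The median was 31.6% in peaks of 501 to 1000 bp.

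The broad peaks with low folds were gathered in a few places. A fold below 10 was listed for 40 broad peaks (12.3%, interval 8.94% to 16.4%), against 10.1% of the list, and all 40 had a background above the floor. No listed peak at the floor had a fold below 9.78, so the cut at 10 left almost no room for any other background. Of the 40, 27 lay in a window of 2 Mb on chromosome 4, whose broad peaks ran from 145042190 to 146961570, and 6 on chromosome 8 between 19 and 20 Mb. The other 7 lay on chromosomes 1, 4, 8, 11, 13, 17 and 18. The one on chromosome 4 (147048400 to 147049876, fold 4.29) stood just past the upper edge of the chromosome 4 window. Both windows were singled out after their values were seen. The low-fold broad peaks were not sparse: their median density was 66.9 tags per kb (interval 56.0 to 77.5), against 59.9 (interval 56.4 to 62.9) for the other 285. Their scores were low, with a median of 98.6 against 557.6, and all 20 broad peaks with a score below 100 were among them.

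The window on chromosome 4 held 57 peaks, of which 28 were broad (49.1%, interval 35.6% to 62.7%). These 28 contained 4100 tags, had folds of 3.70 to 12.0 with a median of 6.62, and all had a background above the floor. The 29 shorter peaks of the window had folds of 4.46 to 17.6 with a median of 7.98, and only 2 were at the floor. Low folds and raised backgrounds were therefore not particular to the broad peaks there. Their median density was 62.4 tags per kb and the longest was 4675 bp (146764053 to 146768727), with 468 tags, 100.1 per kb (interval 91.2 to 109.6), and its summit at 88.1% of the length. The next broad peak began after a gap of 5 bp (146768733 to 146770216) and had 117 tags at a fold of 4.64. On chromosome 8, the window from 19 to 20 Mb held 6 peaks and all were broad. They contained 1677 tags at folds of 4.51 to 9.44, and the longest peak of the list was among them. It spanned 9424 bp (19989533 to 19998956), with 97.0 tags per kb (interval 90.8 to 103.5) and its summit at 17.9% of the length. It had nearly the tag density of the peak of 9148 bp on chromosome 13, 96.4 per kb (interval 90.2 to 103.0), but a fold of 9.44 against 84.1. Whether these windows differ in copy number or in how reads map was not tested.

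Without these windows (an alternative picked once the data had been seen), 291 broad peaks remained and the share with a background above the floor was 26.5% (77 of 291, interval 21.5% to 31.9%). In the shorter peaks outside the windows it was 25.7% (interval 24.0% to 27.4%), inside that interval. Median density was 59.7 tags per kb and median fold 26.6 in the 291.

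Both low and high folds occurred among the longest peaks. A peak of 4399 bp on chromosome 11 (3031237 to 3035635) had 102.3 tags per kb and a fold of 4.57. One of 5045 bp on chromosome 9 (7793338 to 7798382) had 94.9 tags per kb (interval 86.6 to 103.8) and a fold of 24.2, with its background above the floor. A peak of 3748 bp on chromosome 6 (51407508 to 51411255), which was listed with the highest score, also had a background above the floor, with 102.5 tags per kb (interval 92.5 to 113.2) and a fold of 53.0. The sparsest of the 10 longest, 4229 bp on chromosome 9 (76207295 to 76211523), had 61.0 tags per kb (interval 53.8 to 68.9), its background at the floor, and no other peak within 862.6 kb.

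Summits of broad peaks were spread over the length of the peak. The summit lay between 33.3% and 66.7% of the length in 155 broad peaks (47.7%, interval 42.2% to 53.3%), before that part in 88 and after it in 82. The share in this central part was 62.8% (interval 60.9% to 64.7%) in the shorter peaks. That difference came from the shortest peaks: it was 68.4% at 500 bp or less and 46.2% (interval 42.3% to 50.1%) at 501 to 1000 bp, an interval that holds the 47.7% of the broad peaks. In 12 broad peaks (3.69%) the summit stood within 10% of the length from an end, a place that most shorter peaks could not take, since no listed summit was nearer than 63 bp to an end. In 57 broad peaks (17.5%) it was within 20% of an end. In bp, the summit was 90 to 3203 from the nearer end with a median of 495 (interval 463 to 514), against 63 to 488 with a median of 141 in shorter peaks.

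**Figure D3:**
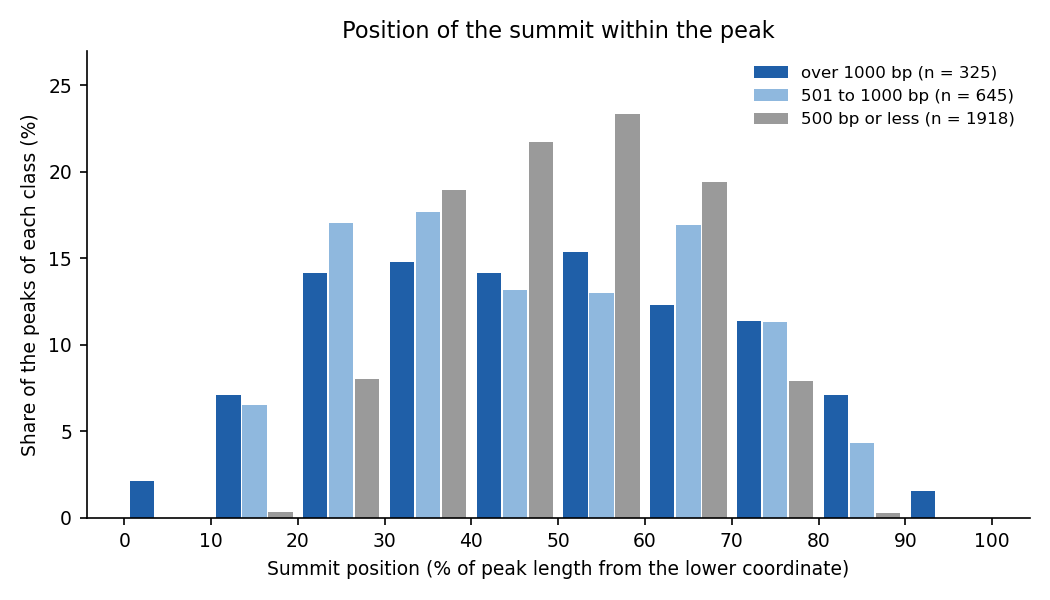
Share of the peaks of each length class (vertical axis, %) by the position of the summit in steps of 10% of the peak length from the lower coordinate (horizontal axis); dark blue bars are broad peaks, light blue peaks of 501 to 1000 bp and grey peaks of 500 bp or less. Broad peaks have 12.3% to 15.4% in each step from 20% to 70%, whereas grey bars are highest near the centre.

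The most lopsided of the peaks named here lay on chromosome 4 (146433542 to 146436811), with its summit at 94.9% of 3270 bp and the next peak 1 bp away. A peak of 5123 bp on chromosome 8 with its summit at 19.3%, named above, and one of 3609 bp on chromosome 11 (7907326 to 7910934) with its summit at 74.5% were also off centre. Among the 10 highest scores, positions ranged from 19.3% to 74.5%.

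Broad peaks had close neighbours about as often as peaks of 501 to 1000 bp did, and more often than the shorter peaks as a whole. Another listed peak lay within 1 kb of 182 broad peaks (56%, interval 50.4% to 61.5%), on both sides in 41 and on 1 side in 141. Within 10 kb the share was 66.2% (interval 60.7% to 71.3%) and within 100 kb 82.8%. The shorter peaks had 45.3% within 1 kb, 57.0% within 10 kb (interval 55.0% to 58.9%) and 74.6% within 100 kb. In the 645 peaks of 501 to 1000 bp the shares were 58.0% (interval 54.1% to 61.8%), 68.2% (interval 64.5% to 71.8%) and 84.8%, so close neighbours were not particular to the broad peaks. Some gaps were very small, with 86 broad peaks (26.5%) within 100 bp of another peak and 21 (6.46%) within 10 bp, against 16.3% and 2.85% of shorter peaks and 22.3% and 5.58% of those of 501 to 1000 bp. The summit did not lean to the neighbour: among the 141 broad peaks with a neighbour on 1 side, it stood in the 50% of the length nearer to that neighbour in 70 (49.6%, interval 41.1% to 58.2%).

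The higher share of the broad peaks was not seen in stricter lists, which drop a larger share of the shorter peaks than of the broad ones and so remove neighbours by construction. With only peaks of a score of at least 100, and gaps measured among those, 36.1% of 305 broad peaks were within 10 kb of another (interval 30.7% to 41.7%), compared with 43.8% of 733 shorter peaks (interval 40.2% to 47.5%). With a false discovery rate of at most 5% the shares were 51.8% of 301 (interval 46.0% to 57.6%) and 54.7% of 1564 (interval 52.2% to 57.2%), a setting that also drops the 17 broad peaks at the top of the list. At 10 kb the intervals of broad and shorter peaks overlap in both lists, and the differences were not tested. Peaks of 501 to 1000 bp had 44.3% and 60.2% within 10 kb in these lists. Within 100 kb, at a score of at least 100, the shares were 52.1% of broad peaks (interval 46.36% to 57.86%) and 61.5% of shorter peaks (interval 57.90% to 65.07%). That order is the reverse of the whole list. At a false discovery rate of at most 5% they were 69.8% and 71.0%.

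**Figure D4:**
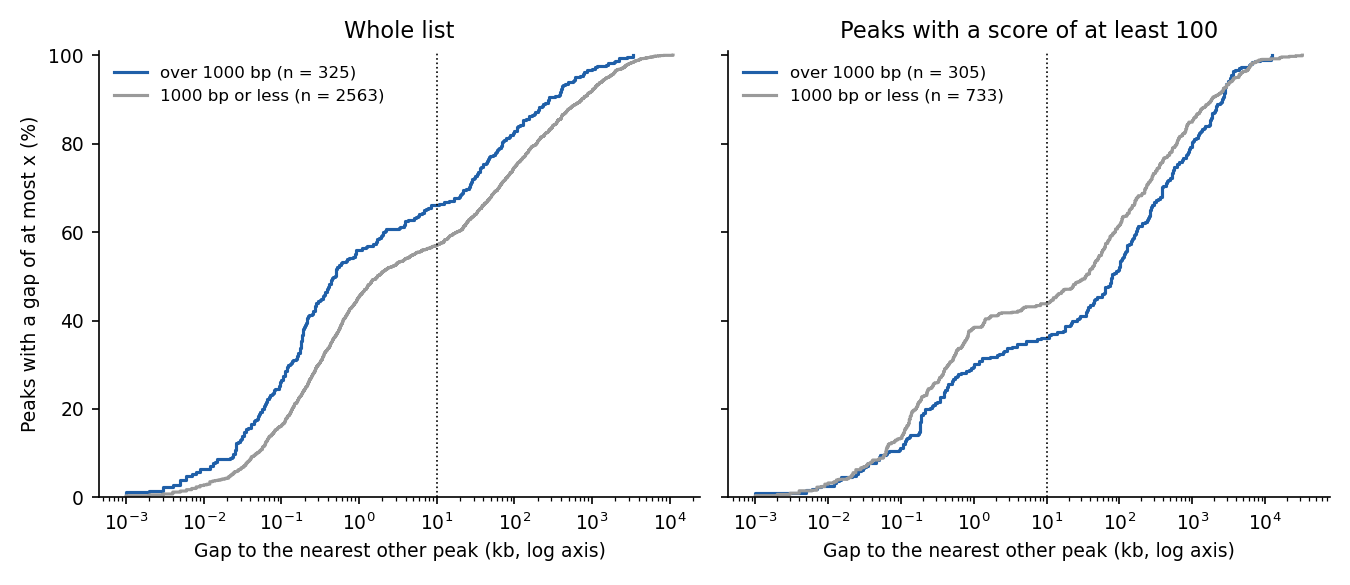
Cumulative share of peaks (vertical axis, %) whose gap to the nearest other peak is at most the value on the horizontal log axis (kb), for broad peaks in blue and shorter peaks in grey; the left panel uses the whole list and the right panel only peaks with a score of at least 100, and the dotted line marks 10 kb. At 10 kb, blue and grey stand at 66.2% and 57.0% on the left and at 36.1% and 43.8%, with overlapping intervals, on the right.

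The neighbours held more tags and had higher scores than other shorter peaks. The 181 shorter peaks within 1 kb of a broad peak had a median length of 415 bp (interval 362 to 449), 16 tags (interval 15 to 19) and a score of 84.2 (interval 74.2 to 96.7), against 363 bp, 13 tags (interval 13 to 14) and 68.8 (interval 67.3 to 70.9) for the 2382 other shorter peaks, and the median fold was 13.7 in both. A neighbour held a median of 18.4% of the tags of its broad peak (interval 16.8% to 20.3%). Of these 181, 77 stood within 100 bp of the broad peak. When peaks with gaps of at most 1 kb were joined, the broad peaks fell into 302 regions with a median span of 1968.5 bp (interval 1869 to 2146), and these regions held 51.4% of all tags. Joining also made 302 further regions longer than 1000 bp that contained no broad peak, the longest of them 5694 bp.

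Broad peaks stood next to each other in 20 pairs with gaps of at most 1 kb, which involved 36 peaks, and 9 of the pairs were on chromosome 4. The closest pair lay on chromosome 13, where 34478334 to 34479851 and 34479853 to 34481795 were separated by 1 bp, with 87 and 159 tags and folds of 23.5 and 28.6. On chromosome 2, a peak of 1119 bp with 81 tags (75505213 to 75506331) stood 181 bp from one of 2558 bp with 299 tags (75506513 to 75509070), at folds of 33.3 and 64.6. On chromosome 7, 3679 bp with 346 tags (50445346 to 50449024) and 2219 bp with 126 tags (50449240 to 50451458) were 215 bp apart. The largest run was on chromosome 4 (146706619 to 146715107), where 5 broad peaks and no shorter one held 603 tags over 8489 bp. The run of 3 broad peaks on chromosome 8 (19986729 to 19998956) held 1121 tags over 12228 bp. A count of broad peaks therefore exceeds the count of separate places.

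Other broad peaks were far from everything else in the list. No listed peak lay within 100 kb of 56 of the 325. Such isolation was less common than among the shorter peaks as a whole: 82.8% of broad peaks had a peak within 100 kb, against 74.6% of shorter peaks. In peaks of 501 to 1000 bp it was 84.8%. The most isolated, on chromosome 18 (4195130 to 4197805), was 3411 kb from the nearest other peak. As the first listed peak of its chromosome, it had a gap on 1 side only. It had 186 tags over 2676 bp but a fold of only 4.04 and a score of 52.6. The next was 1484 bp on chromosome 14 (66920406 to 66921889), with 82 tags, a fold of 20.2 and a gap of 2809 kb. The others among the 5 most isolated, on chromosomes 18, 15 and 1, had folds of 20.6 to 35.7 and gaps of 2003 to 2233 kb. Of these 5, 4 had a background above the floor.

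Broad peaks occurred on all 20 chromosomes with listed peaks. Their share of a chromosome's peaks ranged from 4.76% on chromosome 12 (5 of 105, interval 1.56% to 10.8%) to 20.2% on chromosome 4 (47 of 233, interval 15.2% to 25.9%), leaving out the X. The intervals of 18 chromosomes included the share of the whole list, 11.3%, that of chromosome 4 lay above it and that of chromosome 12 below it. Without its window, chromosome 4 had 19 broad peaks among 176 (10.8%, interval 6.63% to 16.3%). That window was singled out after its values were seen, so leaving it out lowers the share by construction. Chromosome 9 was next with 21 of 134 (15.7%, interval 9.97% to 23.0%), and its interval included 11.3%. These are 20 intervals at 95%, which neighbouring peaks make too narrow.

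The X chromosome had a single broad peak among its 39 peaks (2.56%, interval 0.0649% to 13.5%), so its share could not be told from that of the autosomes, 11.4% of 2849. This peak (100677515 to 100680245) was 2731 bp long, with 188 tags, 68.8 tags per kb (interval 59.4 to 79.4), its background at the floor and its summit, 20 steps high, at 77.8% of the length. Both its length and its density were above the medians of the broad peaks, and it ranked 38 of 2888 by score.

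**Figure D5:**
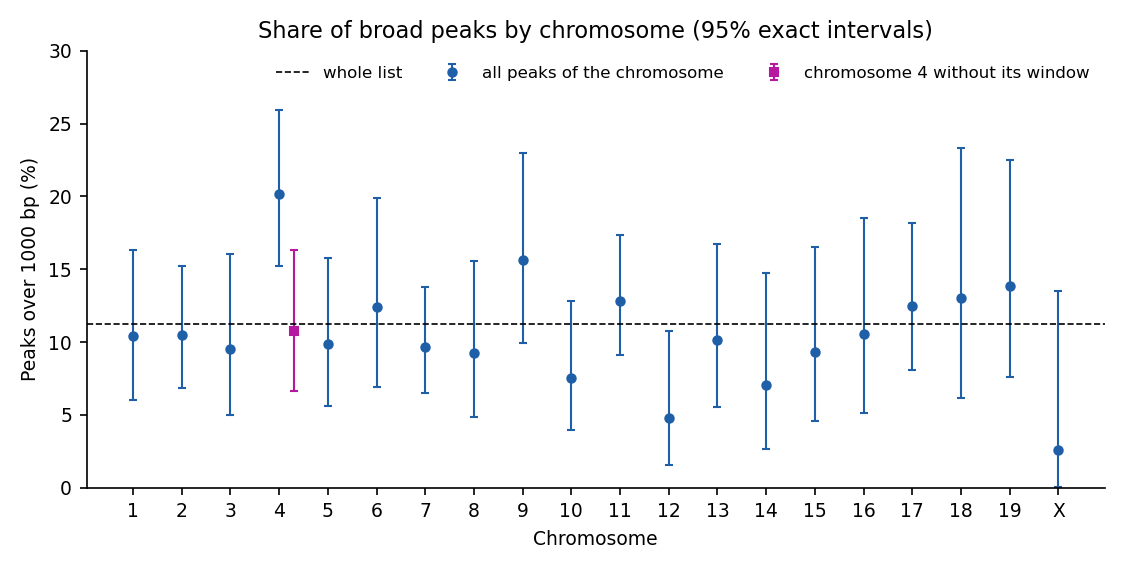
Percent of each chromosome's peaks that were longer than 1000 bp (points) with exact 95% intervals (bars); the dashed line is the whole list at 11.3% and the square shows chromosome 4 without its window of 2 Mb. The point of chromosome 4 is highest at 20.2% and moves to 10.8% without the window, which was singled out after its values were seen.

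At the scale of 1 Mb, broad peaks were mostly single. They fell into 234 windows of 1 Mb, of which 182 held 1, 40 held 2 and 12 held 3 or more. Apart from the windows on chromosomes 4 and 8 described above, the most were 4, on chromosome 3 from 41 to 42 Mb (349 tags, folds 15.7 to 39.1) and on chromosome 19 from 8 to 9 Mb (307 tags, folds 15.8 to 43.1). In each of these, 1 of the 4 had a background above the floor. The 3 broad peaks on chromosome 1 from 88 to 89 Mb and the 3 on chromosome 11 from 106 to 107 Mb were all at the floor, with median folds of 41.1 and 39.1.

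In the 5 peaks nearest the threshold of 1000 bp on each side, the values overlapped, though the ranges reached higher inside it. So few peaks cannot show whether the threshold marks a break. The 5 broad peaks just inside it were 1002 to 1013 bp long, with 45 to 74 tags, 44.4 to 73.4 tags per kb and folds of 13.2 to 41.1. The 5 peaks just outside it were 987 to 1000 bp long, with 39 to 57 tags, 39.2 to 57.6 tags per kb and folds of 10.2 to 22.0. Above-floor backgrounds occurred in 2 of 5 in both sets. The peak with the most tags just inside, on chromosome 4 (131867227 to 131868234), had 74 tags at a fold of 41.1. The one of exactly 1000 bp on the same chromosome (132047561 to 132048560) had 51 tags at a fold of 21.5.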

How the data were processed

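The table held the peaks of 1 ChIP library called against 1 input library. The submitters' processing notes name mm9, Bowtie, SAMtools and MACS 1.4; how reads were filtered, the calling options and the depth are not stated. Each row, per the file headers, has a tag count (whole ChIP tags, as deposited by the authors), a score, a fold (a ratio to background) and a false discovery rate in percent. Folds, rates and scores stand as the authors gave them and serve only to describe or rank peaks of this list. Lengths matched the listed coordinates in 100% of rows, and 0 peaks overlapped.

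From these, tags per kb, summit offset over length, and the edge-to-edge gap to the nearest other peak were computed. The step of the folds was found by a grid search from 1.5 to 2.5. The fold step, the calls at the floor, the gaps, the joining at 1 kb and the median intervals were tested on simulated data. The other calculations were not. All used Python 3.11.15 with matplotlib 3.10.9, scipy 1.17.1, pandas 2.3.3 and numpy 2.4.6. Median intervals are exact binomial, shares Clopper-Pearson and tag counts exact Poisson. No test between groups was made.

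The members, the named peaks (the 10 longest, densest, sparsest and highest scoring, the 5 nearest the threshold on each side, and the 5 farthest from and closest to another peak) and the alternatives were chosen with earlier results of these data known. Others are extremes of a stated count, chosen after their values were seen. The annotation at hand describes GRCm38, coordinates were not converted, and so gene lists, start sites and sequences were not used here.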

Additional observations from a re-analysis of the deposited data

How the results depend on the processing

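Of 41 alternative values, 26 kept within the interval of the reported value (for the number of peaks, within 1.5 times) and 15 moved. With lengths above 1500 and 2000 bp the number was 161 and 66 and the median density 68.8 and 76.6 tags per kb. Above 2000 bp, 47.0% had a background above the floor. Joining peaks within 1 kb gave 604 regions with a median density of 41.3 tags per kb (54.0 in the 302 with a broad peak, 29.0 in the 302 without), and 21.5% within 10 kb of another. That share was 36.1% at a score of at least 100, 51.8% at a false discovery rate of at most 5%, 56% at a distance of 1 kb and 82.8% at 100 kb. Joining and the 2 stricter lists remove neighbours by construction. The share with a background above the floor was 27.9% without the chromosome 4 window and 26.5% without both windows, the latter added after the data were seen. A summit between 25% and 75% of the length occurred in 69.8%. The X chromosome share of broad peaks kept within its interval in all 7 alternatives. It rests on 1 broad peak of 2731 bp, which no length, score, rate or window setting removed. This share could therefore hardly move. The share at start sites (in the peak, or within 1 or 5 kb) was not run, for want of an mm9 annotation. No paired analysis was possible because each group held 1 library. Depth is unknown, so weak parts of broad peaks, and joins between them, may have gone uncalled.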
